A study of Homo sapiens with 9 samples.

Results

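The epithelial and mesenchymal state genes described here are 44 named genes of the 58735 in the count table, taken by gene name: 24 epithelial genes of junctions, keratins, mucins and their regulators, and 20 mesenchymal genes of adhesion, matrix, transcription factors and transforming growth factor beta (TGF-beta) signalling. Collagens and matrix proteases were not part of the set. 2 members, CCN1 and CCN2, stand in the table under their older names CYR61 and CTGF. RNA was sequenced from PANC-1, an established cell line from a human pancreatic carcinoma, in 3 groups of 3 libraries: NC, with no other agent named, and 2 knockouts of ACSS2, titled ACSS2-KO-2 and ACSS2-KO-3. Acetyl-CoA is made from acetate by the enzyme ACSS2, which the title of the series places in branched-chain amino acid metabolism and the growth of pancreatic cancer. What NC stands for, whether 2 and 3 name guides, clones or pools, and whether the libraries of a group were separate cultures is not stated in the sources, so the p-values measure only how these libraries varied, and that variation may be technical. No dose, time or second agent is given for any group. The comparison asks whether epithelial genes and mesenchymal genes differed between each knockout and NC, and between the knockouts.

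Epithelial cells are held together by tight junctions, adherens junctions and desmosomes, are braced by keratin filaments, and carry mucins on their free surface. In an epithelial-mesenchymal transition, transcription factors of the ZEB, SNAI and TWIST families bind E-box sequences and repress epithelial genes such as CDH1, while vimentin, N-cadherin and matrix genes come up; TGF-beta is a classical inducer. Pancreatic carcinoma cells are known for states in which both programmes are present, and PANC-1 is usually placed towards the mesenchymal end.

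RefSeq promoter windows, 250 bases before to 50 bases after the start of a gene in GRCh38.p14, were matched for 26 of the 44 members. CDH1, EPCAM, KRT7, KRT18, KRT19, F11R, ITGB4, ESRP1, ESRP2, GRHL2, OVOL1, OVOL2, TAGLN, THY1, CCN1, SNAI1, SNAI2 and TWIST1 had no entry. The E-box CAGGTG was searched on both strands and was present in 9 of the 26 windows (34.6%), against 20.6% of 35116 windows of the same length. The TEAD motif GGAATG, read on both strands, was in 6 of 26 (23.1%) against 14% of the 35116. The AP-1 motif TGANTCA, read likewise, was in 1 of 26 (3.85%) against 7.71%. None of the motif matches below overlapped another. The 4 windows below, with the matches in capitals, are examples that hold a match. They belong to ZEB1 and AXL, which changed in ACSS2-KO-3, DSP in both knockouts and CCN2 in ACSS2-KO-2. The windows of FN1, CDH2, VIM, TGFB1, CLDN1, CLDN7, JUP and ZEB2, whose changes are also described in detail, held none of these motifs. ZEB1, at chr10:31318167-31318466 on the + strand, holds a CAGGTG 57 bases and a GGAATG, read on the other strand, 1 base before the RefSeq start. AXL, at chr19:41218973-41219272 on the + strand, holds a CAGGTG 106 bases before it. DSP, at chr6:7541421-7541720 on the + strand, holds a CAGGTG at 178 and at 85 bases before it. CCN2, at chr6:131951323-131951622 on the - strand, holds a GGAATG at 169, 104 and 95 bases before it.
ZEB1 promoter: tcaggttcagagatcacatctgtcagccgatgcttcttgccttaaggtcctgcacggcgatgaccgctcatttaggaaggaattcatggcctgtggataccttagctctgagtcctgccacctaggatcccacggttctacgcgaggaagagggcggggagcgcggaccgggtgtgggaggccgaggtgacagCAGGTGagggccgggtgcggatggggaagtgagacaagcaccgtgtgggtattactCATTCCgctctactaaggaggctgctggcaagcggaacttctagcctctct
AXL promoter: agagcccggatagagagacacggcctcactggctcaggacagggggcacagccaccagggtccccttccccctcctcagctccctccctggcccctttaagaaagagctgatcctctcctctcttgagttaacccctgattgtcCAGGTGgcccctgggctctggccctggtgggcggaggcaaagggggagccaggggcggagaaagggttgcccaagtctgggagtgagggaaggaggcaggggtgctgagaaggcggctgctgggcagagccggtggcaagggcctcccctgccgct
DSP promoter: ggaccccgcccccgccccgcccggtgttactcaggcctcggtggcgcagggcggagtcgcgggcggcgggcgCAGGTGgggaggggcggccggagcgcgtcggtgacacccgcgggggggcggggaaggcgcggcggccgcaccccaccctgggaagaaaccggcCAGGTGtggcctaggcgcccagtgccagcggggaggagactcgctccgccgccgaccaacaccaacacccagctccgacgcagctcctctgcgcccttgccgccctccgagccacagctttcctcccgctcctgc
CCN2 promoter: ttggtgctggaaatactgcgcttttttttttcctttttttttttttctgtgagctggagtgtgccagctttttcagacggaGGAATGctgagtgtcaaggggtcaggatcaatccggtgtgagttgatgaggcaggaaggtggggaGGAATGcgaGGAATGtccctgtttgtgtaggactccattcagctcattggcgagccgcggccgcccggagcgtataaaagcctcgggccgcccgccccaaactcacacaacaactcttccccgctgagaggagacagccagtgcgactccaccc
A match is a description of the letters in a window; binding was not measured.

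Libraries totalled 14756572 to 17457190 counts. Genes with a count numbered 24476 to 24496 in NC, 24572 to 25185 for ACSS2-KO-2 and 22311 to 23183 for ACSS2-KO-3. The part of this difference in the results was not tested. ACSS2, the targeted gene, was lower than in NC in all 6 knockout libraries: levels in CPM (counts per 1000000, with TMM scaling) were 33.3, 30.6 and 28.3 in NC, 15.1, 14.7 and 12.4 for ACSS2-KO-2, and 7.19, 8.57 and 8.50 for ACSS2-KO-3. Of the labelled cell type's duct markers, KRT19, SOX9 and KRT7 were present at 296, 167 and 7.04 CPM in NC, while CFTR had 0 counts in every library. The 9 fibroblast markers summed to 0.187 to 0.388 CPM in NC, 0.542 to 1.51 for ACSS2-KO-2 and 0.122 to 0.411 for ACSS2-KO-3, with LUM, FAP, MFAP5 and POSTN at 0 counts throughout. The 10 immune markers summed to 3.92 to 5.43 CPM over the 9 libraries, led by CD14. Endothelial markers, of which KDR gave most, summed to 2.74 to 3.68 CPM in NC, 5.48 to 6.64 for ACSS2-KO-2 and 1.96 to 2.54 for ACSS2-KO-3. Acinar markers reached at most 1.19 CPM and the islet markers 3.59 to 6.29 CPM. The part of these markers in the results below was not tested. Fold changes in ACSS2-KO-3 against NC ran with the GC content of the transcript (rank correlation 0.53 across 12903 protein-coding genes, which share the same libraries and are not independent replicates). In ACSS2-KO-2 that correlation was -0.01. Fold changes of single genes in ACSS2-KO-3 against NC are therefore also given from the same edgeR model with offsets for GC content and length in each library, under which the correlation was -0.01; the part of GC content in the results was otherwise not tested.

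In NC, genes of both programmes were among the highest members per length. KRT8, a keratin of simple epithelia, stood at 427 CPM per kilobase of the gene model length listed in the table. CCN1, a matricellular protein, followed at 373 CPM per kilobase, KRT18, the partner of KRT8 in keratin filaments, at 365 and VIM, the mesenchymal filament protein vimentin, at 339. Between these neighbours the per-length levels differ by less than 1.5 times, and gene models are an imperfect divisor, so their order is a description. The E-cadherin gene CDH1 was at 0.998 CPM per kilobase and EPCAM, an epithelial surface adhesion protein, at 3.70, below the N-cadherin gene CDH2 at 13.7. FN1, the gene of the matrix protein fibronectin, was low at 0.0859 CPM per kilobase. Summed over the 24 epithelial members the level was 5401 ± 24.5 CPM (SD, n = 3) in NC, 5298 ± 250 for ACSS2-KO-2 and 6560 ± 334 for ACSS2-KO-3, of which KRT8 alone made up 54.4%, 54.6% and 57.5%. The 20 mesenchymal members summed to 3646 ± 139, 3444 ± 117 and 4269 ± 143 CPM, with VIM giving 47.9%, 44.4% and 40.1%. These sums were taken without the offsets for GC content and length. In ACSS2-KO-3 against NC the offsets moved the log2 fold change of KRT8 from 0.36 to 0.16 and that of VIM from -0.03 to -0.09.

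**Figure D1:**
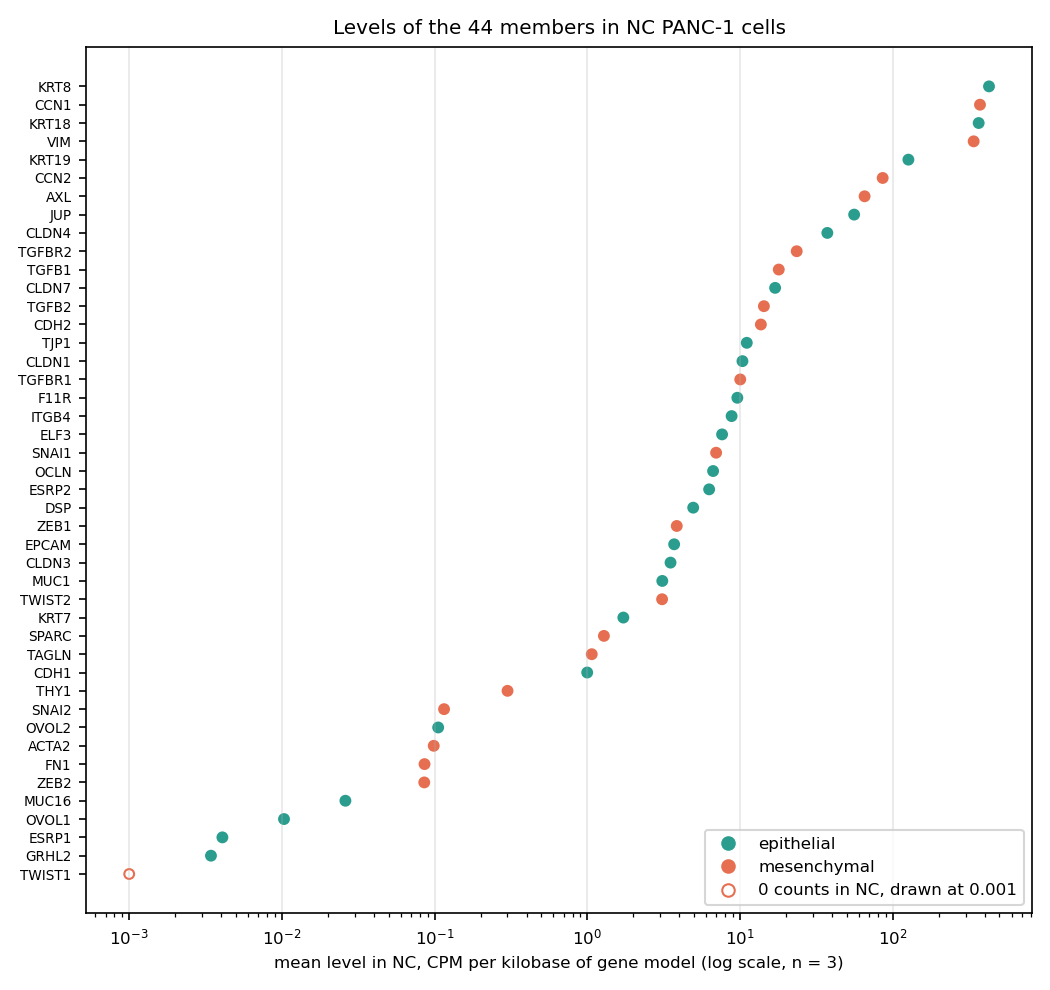
Mean level of each of the 44 members in the 3 NC libraries, in CPM per kilobase of gene model on a log axis, ordered by level and coloured by class. KRT8 (427) and VIM (339) stand near the top, CDH1 (0.998) far below CDH2 (13.7), and TWIST1, with 0 counts in NC, is drawn as an open point at 0.001.

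6 members lay under the filter on low counts: the epithelial regulators ESRP1, GRHL2, OVOL1 and OVOL2, the smooth muscle actin gene ACTA2 and the transcription factor gene TWIST1. The other 38 passed it and were tested, 20 of 24 epithelial and 18 of 20 mesenchymal. In ACSS2-KO-2 against NC, 11 of the 38 tested members passed an adjusted p of 0.05 in edgeR's quasi-likelihood test, 28.9%, against 6.65% of all 15811 tested genes. Only 4 of these 11 calls held under all 18 alternative settings. The members were chosen with earlier results of these data known, so the share is a description. Of the epithelial members 3 rose (KRT19, CLDN1 and DSP) and 2 fell (CLDN7 and MUC16). Of the mesenchymal members 3 rose (FN1, TGFB1 and AXL) and 3 fell (CDH2, VIM and CCN2). MUC16 passed the filter through its NC libraries, where it was highest, which favours a fall. Across all tested genes, 3.81% were called higher and 2.84% lower. In ACSS2-KO-3 against NC, 22 of 38 passed, 57.9% against 63.3% of all tested genes. The tested members were expressed above the average gene, with a median level of 46.9 CPM against 19.7 CPM over all tested genes. Of the 4761 tested genes at or above the members' median, 6.89% were called for ACSS2-KO-2 against NC, and 82.9% for ACSS2-KO-3 against NC. In ACSS2-KO-3 7 epithelial members rose and 5 fell, and 5 mesenchymal members rose and 5 fell, where 31.2% of all tested genes were called higher and 32.1% lower. With the GC and length offsets, 24 of 38 members passed in ACSS2-KO-3 against 60.3% of all tested genes; the split was 6 higher and 6 lower among the epithelial members and 8 higher and 4 lower among the mesenchymal members, with 35.8% of all tested genes called higher and 24.5% lower. For ACSS2-KO-2 the offsets gave 13 of 38 members against 9.3% of all tested genes, 6 of them higher (5.24% of all tested genes) and 7 lower (4.06%).

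Called members of each class went in both directions. In bulk RNA, fewer cells in a state and less RNA per cell cannot be told apart. The median log2 fold change of the epithelial members was -0.09 for ACSS2-KO-2 and 0.10 for ACSS2-KO-3, and that of the mesenchymal members was 0.05 and 0.02; over all tested genes it was -0.003 and -0.04. With the offsets the ACSS2-KO-3 medians were -0.02 (epithelial), 0.12 (mesenchymal) and 0.05 (all tested genes). In ACSS2-KO-2, all 3 libraries lay above all 3 NC libraries for 10 of the 38 tested members and below them for 12; over all tested genes 24.8% were separated, 12.6% upwards and 12.1% downwards. In ACSS2-KO-3 the groups were separated upwards for 14 members and downwards for 11, with 66.9% separated over all tested genes, 33.1% upwards and 33.8% downwards. Both comparisons use the same NC libraries, so their values below stand side by side and are not independent. Called in both were KRT19, DSP, TGFB1 and AXL, higher, CLDN7 and MUC16, lower, and CDH2, which was lower in ACSS2-KO-2 and higher in ACSS2-KO-3. For MUC16, kept by the filter through NC, a fall was the favoured call.

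**Figure D2:**
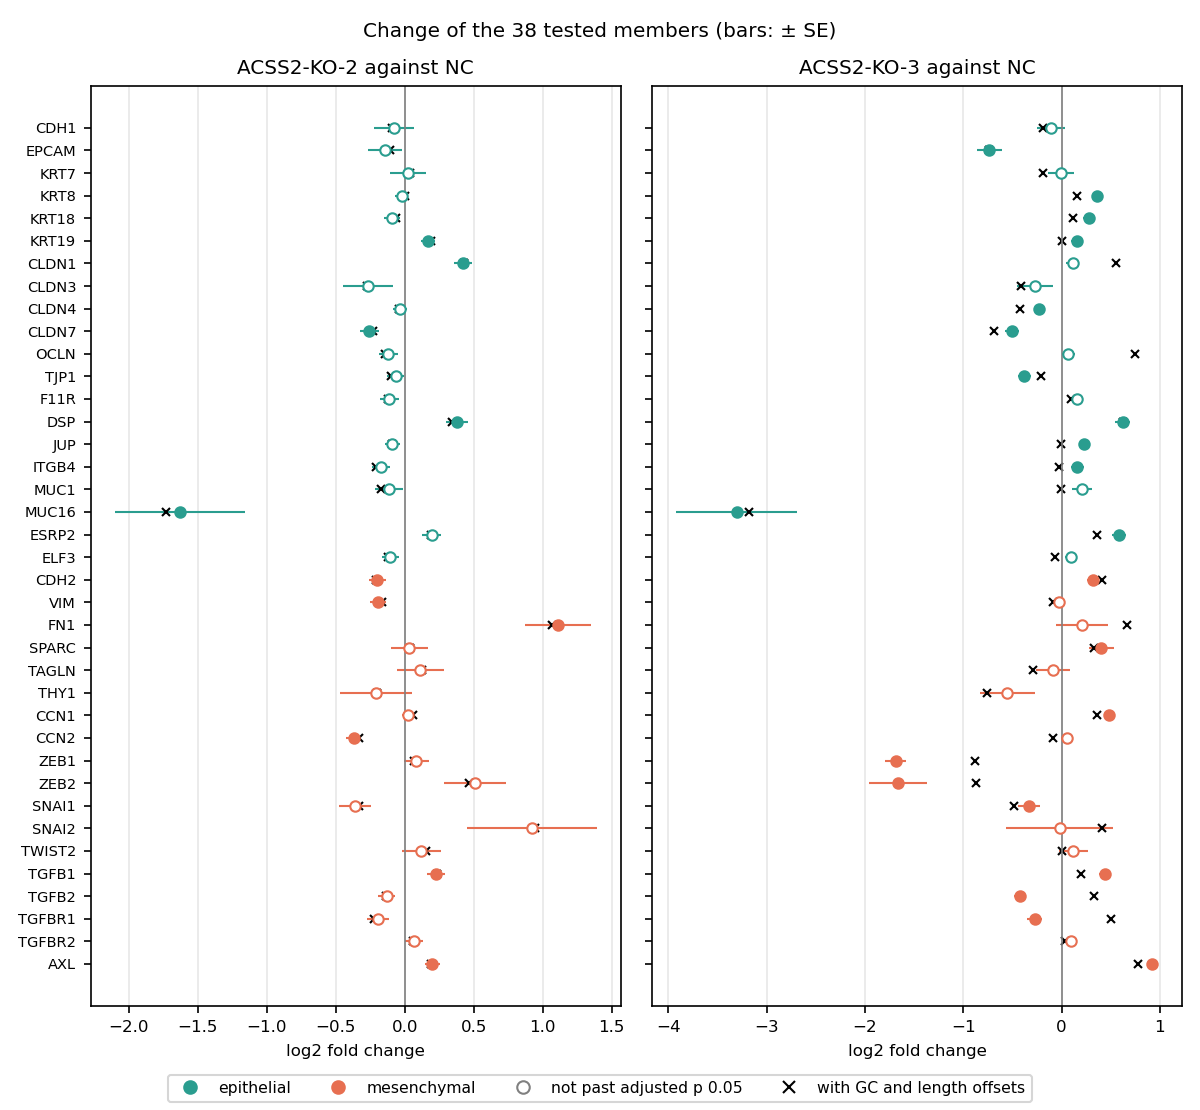
Log2 fold change against NC (x axis, points with bars of ± SE) of the 38 tested members, ordered by role and coloured by class, for ACSS2-KO-2 (left) and ACSS2-KO-3 (right, a wider axis); filled points passed an adjusted p of 0.05 and crosses are the same values with offsets for GC content and length. In the right panel MUC16 (-3.31), ZEB1 (-1.69) and ZEB2 (-1.66) lie lowest and AXL (0.92) highest, and the ZEB crosses sit near -0.88 and -0.87.

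Of the 2 epithelial adhesion genes, EPCAM fell in ACSS2-KO-3 and CDH1 did not pass in either knockout. CDH1 (chr16:68737225-68835548, + strand), which encodes the adherens junction protein E-cadherin, was at 5.68, 6.80 and 6.02 CPM in NC, 6.06, 6.31 and 5.12 for ACSS2-KO-2 and 5.82, 5.96 and 5.35 for ACSS2-KO-3. The 3 groups overlapped, with log2 fold changes of -0.08 ± 0.15 (SE; edgeR adjusted p = 0.827) and -0.11 ± 0.15 (edgeR adjusted p = 0.536; -0.19 with offsets, adjusted p = 0.26). EPCAM (chr2:47345158-47387601, + strand) stood at 9.11, 9.51 and 9.36 CPM in NC, 8.92, 8.94 and 7.53 for ACSS2-KO-2 and 5.42, 6.02 and 5.35 for ACSS2-KO-3. All ACSS2-KO-3 libraries lay below all others, a log2 fold change of -0.73 ± 0.13 against NC (edgeR adjusted p = 2.2e-05; -0.74 with offsets). In ACSS2-KO-2 the EPCAM value was -0.14 ± 0.12 (edgeR adjusted p = 0.594).

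Of the 4 keratin genes, KRT8, KRT18 and KRT19 rose in ACSS2-KO-3, by less or not at all with the offsets, and KRT19 also rose in ACSS2-KO-2. KRT8 (chr12:52897187-52949954, - strand) was at 2892, 2960 and 2960 CPM in NC, 2957, 2987 and 2735 for ACSS2-KO-2 and 3713, 3579 and 4030 for ACSS2-KO-3. The ACSS2-KO-3 libraries were the highest, with a log2 fold change of 0.36 ± 0.05 (edgeR adjusted p = 3.48e-07; 0.16 with offsets, adjusted p = 0.0013), while ACSS2-KO-2 overlapped NC at -0.02 ± 0.05 (edgeR adjusted p = 0.864). KRT18 (chr12:52948871-52952901, + strand) was at 1222, 1175 and 1129 CPM in NC, 1182, 1119 and 1006 for ACSS2-KO-2 and 1428, 1336 and 1503 for ACSS2-KO-3. It likewise rose in ACSS2-KO-3, by 0.27 ± 0.06 in log2 units (edgeR adjusted p = 0.000107; 0.12 with offsets, adjusted p = 0.0265), and gave -0.09 ± 0.06 in ACSS2-KO-2 (edgeR adjusted p = 0.392). The gene models of KRT8 and KRT18 overlap on opposite strands and the strand setting of the counting is not given, so reads of 1 could have been counted for the other. Rows named as KRT8 or KRT18 pseudogenes together held 0.538% and 0.134% as many counts as the gene itself.

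KRT19 (chr17:41523617-41528308, - strand), a duct keratin, was at 295, 290 and 302 CPM in NC, 339, 339 and 319 for ACSS2-KO-2 and 327, 310 and 350 for ACSS2-KO-3. Both knockouts lay above NC, by 0.17 ± 0.05 (edgeR adjusted p = 0.0481) and 0.15 ± 0.05 (edgeR adjusted p = 0.0125) in log2 units. The ACSS2-KO-2 call was lost without any 1 of the 3 NC libraries or the 3 ACSS2-KO-2 libraries, or without ACSS2-KO-3 replicate 1, at 0.15 to 0.20 with adjusted p of 0.0523 to 0.191. In ACSS2-KO-3 it was lost without ACSS2-KO-3 replicate 3 (0.11, adjusted p = 0.0713) and gave -0.00066 with offsets (adjusted p = 0.992). KRT7, a second duct keratin, did not pass in either knockout, at 0.02 ± 0.13 and -0.01 ± 0.13 (-0.19 with offsets in ACSS2-KO-3). Its model shares positions with that of KRT86, which had 689 counts over the 9 libraries against 1018 for KRT7.

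Tight junction genes did not share a direction. CLDN7 (chr17:7259903-7263983, - strand), a claudin of epithelial tight junctions, was at 41.9, 41.4 and 43.6 CPM in NC, 37.3, 35.3 and 33.6 for ACSS2-KO-2 and 28.8, 29.7 and 30.7 for ACSS2-KO-3. The 3 groups did not overlap, and it fell in both knockouts, with log2 fold changes of -0.26 ± 0.07 (edgeR adjusted p = 0.0214) and -0.51 ± 0.07 (edgeR adjusted p = 5.28e-07; -0.69 with offsets). In ACSS2-KO-2 the call did not hold without NC replicate 2 (-0.27, adjusted p = 0.0574), NC replicate 3 (-0.23, 0.103), ACSS2-KO-2 replicate 2 (-0.25, 0.0943) or ACSS2-KO-2 replicate 3 (-0.22, 0.134). That call was also lost in DESeq2 (-0.24, DESeq2 adjusted p = 0.0526). CLDN7 overlaps ELP5 on the opposite strand, which had 9387 counts against 5166 for CLDN7. CLDN1 (chr3:190305701-190322475, - strand), another claudin, was at 37.99, 39.0 and 37.0 CPM in NC, 49.0, 51.2 and 52.8 for ACSS2-KO-2 and 40.0, 40.5 and 42.5 for ACSS2-KO-3. It rose in ACSS2-KO-2 by 0.43 ± 0.07 in log2 units (edgeR adjusted p = 5.99e-05). In ACSS2-KO-3 it gave 0.11 ± 0.07 (edgeR adjusted p = 0.152) without offsets and 0.55 with them (adjusted p = 4.57e-09).

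Of the other 5 tight junction genes, the claudin gene CLDN4 and the scaffold gene TJP1 fell in ACSS2-KO-3, with log2 fold changes of -0.23 ± 0.05 (edgeR adjusted p = 0.000537; -0.42 with offsets) and -0.38 ± 0.06 (edgeR adjusted p = 9.57e-06; -0.21 with offsets). CLDN3, the occludin gene OCLN and F11R, which encodes the junctional adhesion molecule JAM-A, did not pass in ACSS2-KO-3, at -0.27, 0.07 and 0.15. F11R gave 0.09 with offsets (adjusted p = 0.228) and passed without NC replicate 1 (0.22, adjusted p = 0.0123), without ACSS2-KO-2 replicate 2 (0.17, 0.0443) or without ACSS2-KO-3 replicate 2 (0.20, 0.0168). With offsets CLDN3 was called lower (-0.42, adjusted p = 0.0491) and OCLN higher (0.75, adjusted p = 4.38e-12). None of these 5 passed in ACSS2-KO-2, where their log2 fold changes ran from -0.26 (CLDN3) to -0.03 (CLDN4).

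The 3 desmosome and hemidesmosome members DSP, JUP and ITGB4 rose in ACSS2-KO-3, and DSP alone kept its call with offsets. Of the other junction and polarity genes given further on, DST and DSG2 fell there and PLEC rose. DSP (chr6:7541575-7586717, + strand), the desmosomal plaque protein desmoplakin, was at 43.3, 53.3 and 52.9 CPM in NC, 60.0, 66.3 and 68.4 for ACSS2-KO-2 and 77.2, 83.3 and 69.0 for ACSS2-KO-3. The groups did not overlap. DSP rose by 0.38 ± 0.08 for ACSS2-KO-2 (edgeR adjusted p = 0.00211) and by 0.62 ± 0.08 in ACSS2-KO-3 (edgeR adjusted p = 1.07e-07; 0.63 with offsets) in log2 units, and both calls held under all 18 alternatives. JUP (chr17:41754604-41786931, - strand), plakoglobin of desmosomes and adherens junctions, was at 265, 277 and 287 CPM in NC, 257, 277 and 244 for ACSS2-KO-2 and 336, 307 and 331 for ACSS2-KO-3. Its rise in ACSS2-KO-3 was 0.23 ± 0.05 in log2 units (edgeR adjusted p = 0.000574) and became -0.0046 with offsets (adjusted p = 0.94); in ACSS2-KO-2 it gave -0.09 ± 0.05 (edgeR adjusted p = 0.402). ITGB4, the hemidesmosome integrin, rose by 0.16 ± 0.07 in log2 units in ACSS2-KO-3 (edgeR adjusted p = 0.0368) and gave -0.030 with offsets (adjusted p = 0.674). In ACSS2-KO-2 ITGB4 gave -0.17 ± 0.07 (edgeR adjusted p = 0.134) and was called lower with offsets (-0.21, adjusted p = 0.0155). The ITGB4 call in ACSS2-KO-3 was lost without NC replicate 1 (0.11, adjusted p = 0.168), NC replicate 2 (0.17, 0.0632) or ACSS2-KO-3 replicate 3 (0.12, 0.159). That call was also lost with no low-count filter (0.17, edgeR adjusted p = 0.0502) and with only the 2 groups compared (0.15, 0.0543). A filter of 1 CPM in 3 libraries gave 0.14 (edgeR adjusted p = 0.0557). ITGB4 overlaps GALK1 on the opposite strand, with 4657 counts against 8556.

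Of the mucins, MUC16 fell in both knockouts from a low level. The filter on low counts kept it through its NC libraries, where it was highest. That favours a call of a fall, so these calls are a description. MUC16 (chr19:8848844-8981342, - strand), the large surface mucin that carries the CA125 antigen, had 20, 18 and 17 counts in NC, 11, 3 and 4 for ACSS2-KO-2 and 1, 0 and 4 for ACSS2-KO-3. As CPM these were 1.25, 1.17 and 1.01, then 0.629, 0.197 and 0.241, then 0.0654, 0 and 0.274, and a library with 0 counts allows up to 3, or 0.182 CPM in that library. Every knockout library lay below every NC library. The log2 fold changes were -1.63 ± 0.47 for ACSS2-KO-2 (edgeR adjusted p = 0.0349) and -3.31 ± 0.61 in ACSS2-KO-3 (edgeR adjusted p = 3.61e-05; -3.18 with offsets). The ACSS2-KO-2 call did not hold without NC replicate 1, 2 or 3 (-1.56, -1.61 and -1.71; adjusted p = 0.115, 0.104 and 0.0676), nor without ACSS2-KO-2 replicate 2 or 3 (-1.36 and -1.41; adjusted p = 0.189 and 0.167). That call was also lost in DESeq2 (-1.65, DESeq2 adjusted p = 0.0941). MUC1, a widely expressed epithelial mucin, did not pass in either knockout, at -0.11 and 0.21. In ACSS2-KO-3 MUC1 gave -0.0037 with offsets (adjusted p = 0.978) and passed without NC replicate 1 (0.26, adjusted p = 0.0462).

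The regulators of the epithelial state were mostly near 0. ESRP1, a splicing regulator of epithelial isoforms, had 0, 0 and 1 counts in NC, 0, 1 and 3 for ACSS2-KO-2 and 0, 1 and 0 for ACSS2-KO-3. GRHL2, a grainyhead transcription factor that maintains epithelia, had 2 counts over all 9 libraries, OVOL1 had at most 2 in a library and OVOL2 at most 9. At this depth no difference between groups could be detected in these 4 genes, also without the filter on low counts. ESRP2 (chr16:68229111-68238102, - strand), the second of the pair of splicing regulators, was at 32.4, 35.1 and 37.1 CPM in NC, 39.8, 38.9 and 41.1 for ACSS2-KO-2 and 53.1, 50.0 and 53.9 for ACSS2-KO-3. It rose in ACSS2-KO-3 by 0.58 ± 0.07 in log2 units (edgeR adjusted p = 3.67e-08; 0.36 with offsets) and gave 0.19 ± 0.07 in ACSS2-KO-2 (edgeR adjusted p = 0.106). NFATC3 overlaps ESRP2 on the opposite strand, with 2864 counts against 6076. ELF3, an epithelial transcription factor of the ETS family, did not pass in either knockout, at -0.10 and 0.09 (-0.07 with offsets in ACSS2-KO-3).

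**Figure D3:**
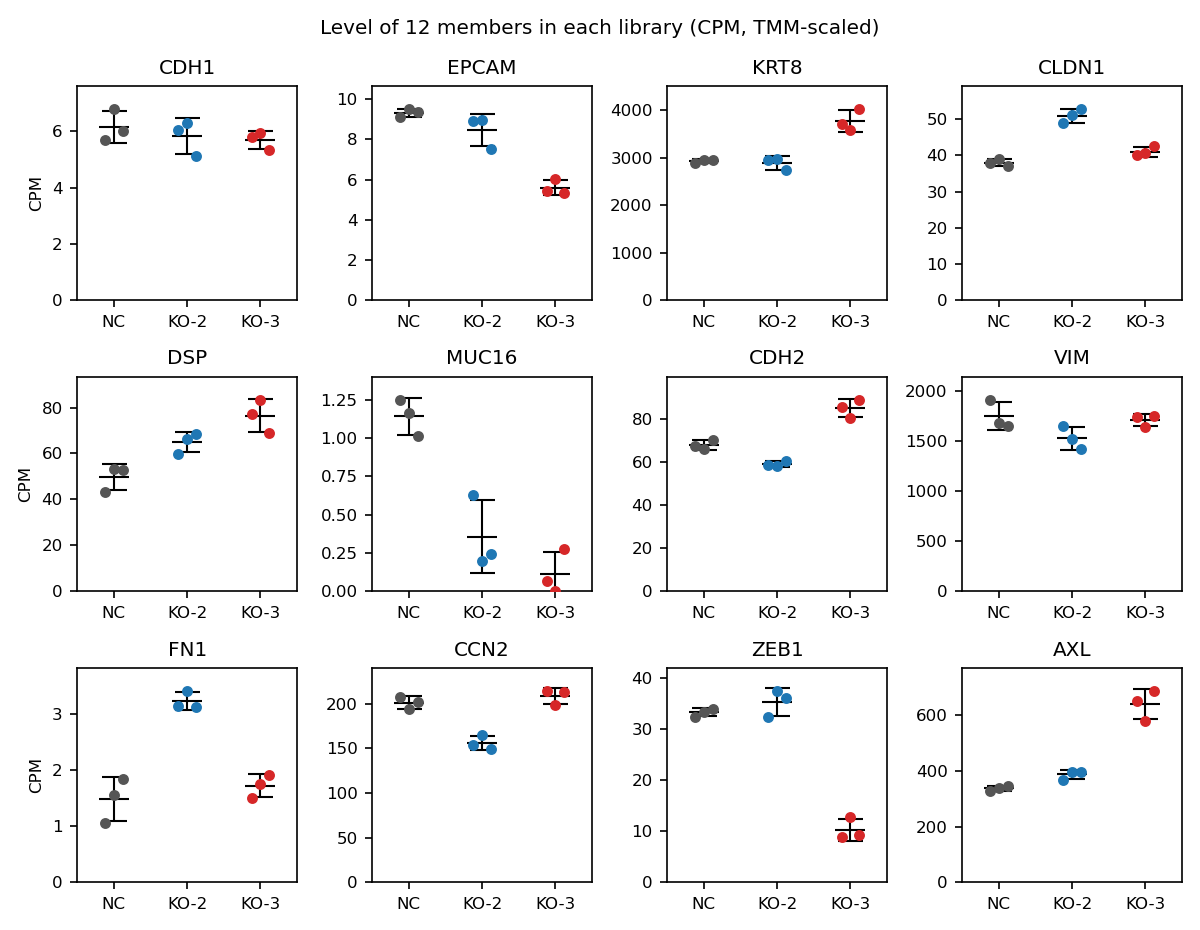
Level of 12 members in each of the 9 libraries (y axis, CPM with TMM scaling, each panel from 0), with points for libraries and black bars for the group mean ± SD (n = 3). CLDN1 and FN1 are highest in ACSS2-KO-2, AXL lies between 326 and 345 CPM in NC and between 580 and 687 in ACSS2-KO-3, ZEB1 drops to 8.82 to 12.8 CPM there, and the CDH1 groups overlap.

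Among the mesenchymal adhesion, cytoskeleton and matrix genes, the knockouts differed. CDH2 (chr18:27950966-28177446, - strand), the N-cadherin gene, was at 67.3, 65.9 and 70.1 CPM in NC, 58.4, 58.3 and 60.5 for ACSS2-KO-2 and 85.3, 80.5 and 88.7 for ACSS2-KO-3. The groups did not overlap, with ACSS2-KO-2 lowest and ACSS2-KO-3 highest. Its log2 fold change was -0.20 ± 0.06 for ACSS2-KO-2 (edgeR adjusted p = 0.0428) and 0.32 ± 0.06 in ACSS2-KO-3 (edgeR adjusted p = 2.92e-05; 0.41 with offsets). The fall in ACSS2-KO-2 did not pass when any 1 of the 3 NC or 3 ACSS2-KO-2 libraries was left out, at -0.22 to -0.17 with adjusted p of 0.0775 to 0.184. It was also lost under RLE scaling (-0.18, edgeR adjusted p = 0.0711) and with no low-count filter (-0.19, edgeR adjusted p = 0.0934). DESeq2 gave -0.18 (DESeq2 adjusted p = 0.0941). The rise in ACSS2-KO-3 held under all 18 alternatives.

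VIM (chr10:17228259-17237593, + strand) was at 1908, 1680 and 1653 CPM in NC, 1646, 1523 and 1416 for ACSS2-KO-2 and 1734, 1643 and 1752 for ACSS2-KO-3. It fell in ACSS2-KO-2 by 0.19 ± 0.06 in log2 units (edgeR adjusted p = 0.0369), with NC replicate 1 the highest library of all. Without NC replicate 1 the log2 fold change was -0.13 (adjusted p = 0.226) and without NC replicate 2 it was -0.22 (0.0588). Without ACSS2-KO-2 replicate 2 it was -0.19 (0.143) and without ACSS2-KO-2 replicate 3 it was -0.14 (0.239). None of these passed, nor did RLE scaling (-0.18, edgeR adjusted p = 0.055) or DESeq2 (-0.18, DESeq2 adjusted p = 0.0639). In ACSS2-KO-3 VIM overlapped NC at -0.03 ± 0.06 (edgeR adjusted p = 0.651; -0.09 with offsets).

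FN1 (chr2:215360440-215436172, - strand) had 17, 24 and 31 counts in NC, 55, 52 and 52 for ACSS2-KO-2 and 23, 29 and 28 for ACSS2-KO-3. As levels these were 1.06, 1.55 and 1.85 CPM, 3.15, 3.42 and 3.13 CPM, and 1.503, 1.76 and 1.92 CPM. The ACSS2-KO-2 libraries lay above all others, and FN1 rose there by 1.11 ± 0.24 in log2 units (edgeR adjusted p = 0.00316), a call that held under all 18 alternatives. In ACSS2-KO-3 it overlapped NC at 0.21 ± 0.27 (edgeR adjusted p = 0.503), and gave 0.66 with offsets (adjusted p = 0.0319). SPARC (chr5:151661096-151687165, - strand), a matricellular glycoprotein, was at 6.30, 5.70 and 6.62 CPM in NC, 6.35, 6.44 and 6.26 for ACSS2-KO-2 and 8.17, 8.09 and 8.43 for ACSS2-KO-3. It rose in ACSS2-KO-3, by 0.40 ± 0.13 (edgeR adjusted p = 0.00834; 0.33 with offsets), and gave 0.03 ± 0.13 in ACSS2-KO-2 (edgeR adjusted p = 0.932). TAGLN, an actin-binding protein of smooth muscle, and THY1, a surface glycoprotein of fibroblasts, did not pass in either knockout, at log2 fold changes of 0.11 and -0.21 for ACSS2-KO-2 and -0.09 and -0.55 for ACSS2-KO-3; with offsets TAGLN gave -0.30 in ACSS2-KO-3 (adjusted p = 0.144) and THY1 was called lower there (-0.76, adjusted p = 0.0203). TAGLN and THY1 overlap PCSK7 and USP2-AS1 on the opposite strand, both with more counts than the member. ACTA2 had 1 to 8 counts in a library and was not tested.

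The CCN genes, matricellular proteins often used as readouts of YAP, TAZ and TEAD activity, moved in 1 knockout each. CCN1 (chr1:85580761-85583962, + strand) was at 924, 911 and 909 CPM in NC, 964, 929 and 898 for ACSS2-KO-2 and 1293, 1247 and 1286 for ACSS2-KO-3. It rose in ACSS2-KO-3 by 0.48 ± 0.05 in log2 units (edgeR adjusted p = 5.95e-10; 0.36 with offsets) and overlapped NC in ACSS2-KO-2 at 0.02 ± 0.05 (edgeR adjusted p = 0.828). CCN2 (chr6:131948176-131951373, - strand), whose promoter window with 3 TEAD motif matches is printed above, was at 208, 194 and 201 CPM in NC, 154, 165 and 149 for ACSS2-KO-2 and 214, 198 and 213 for ACSS2-KO-3. The 3 ACSS2-KO-2 libraries were the lowest. CCN2 fell there by 0.37 ± 0.05 in log2 units (edgeR adjusted p = 3.12e-05), under all 18 alternatives too, and gave 0.05 ± 0.05 in ACSS2-KO-3 (edgeR adjusted p = 0.424; -0.08 with offsets, adjusted p = 0.127).

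Both ZEB genes fell in ACSS2-KO-3, by more than any other tested mesenchymal member in either comparison with NC. ZEB1 (chr10:31318495-31529814, + strand), a zinc finger repressor of epithelial genes, was at 32.4, 33.5 and 34.0 CPM in NC, 32.3, 37.5 and 36.2 for ACSS2-KO-2 and 8.82, 12.8 and 9.19 for ACSS2-KO-3. The ACSS2-KO-3 libraries lay far below the rest, at a log2 fold change of -1.69 ± 0.11 (edgeR adjusted p = 1.56e-13). The ZEB1 transcript has a GC content of 38.5%, and with offsets the fall was -0.88 (adjusted p = 4.68e-10); over the 18 alternatives it ran from -1.88 to -0.88 and always passed. In ACSS2-KO-2 ZEB1 gave 0.08 ± 0.09 (edgeR adjusted p = 0.679). ZEB1-AS1, on the opposite strand, had 155, 146 and 85 counts summed over the NC libraries, those of ACSS2-KO-2 and those of ACSS2-KO-3, 10.1% of the counts of ZEB1 over all libraries.

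ZEB2 (chr2:144364364-144524583, - strand), the paralog of ZEB1, was lower per length and had 33, 39 and 31 counts in NC, 50, 46 and 54 for ACSS2-KO-2 and 10, 10 and 11 for ACSS2-KO-3. In CPM these were 2.06, 2.52 and 1.85, then 2.86, 3.02 and 3.25, then 0.654, 0.608 and 0.754. The 3 groups did not overlap. ZEB2 fell in ACSS2-KO-3 by 1.66 ± 0.29 in log2 units (edgeR adjusted p = 1.6e-05; -0.87 with offsets, adjusted p = 0.0139), and its value in ACSS2-KO-2, 0.51 ± 0.22, did not pass (edgeR adjusted p = 0.199). The fall of both ZEB genes stood beside a CDH1 value that did not pass (-0.11) and an EPCAM value that fell (-0.73). Of the 20 tested epithelial members, 7 were called higher and 5 lower there, or 6 and 6 with offsets. A link between these values and the ZEB genes was not tested. SNAI1, which encodes the zinc finger repressor Snail, fell in ACSS2-KO-3 by 0.33 ± 0.12 in log2 units (edgeR adjusted p = 0.0147; -0.48 with offsets). That call was lost without NC replicate 1 (-0.29, adjusted p = 0.0575), ACSS2-KO-3 replicate 1 (-0.29, 0.0581) or ACSS2-KO-3 replicate 2 (-0.27, 0.0717). In ACSS2-KO-2 SNAI1 gave -0.36 ± 0.12 (edgeR adjusted p = 0.0587) and passed without ACSS2-KO-3 replicate 2 or 3 (-0.36 in each, adjusted p = 0.0476 and 0.0427). SNAI1 also passed there with only the 2 groups compared (-0.36, edgeR adjusted p = 0.0422).

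SNAI2, the gene of the repressor Slug, had 9, 3 and 7 counts in NC, 12, 12 and 13 for ACSS2-KO-2 and 8, 8 and 2 for ACSS2-KO-3. Its levels were 0.561, 0.194 and 0.417 CPM, then 0.686, 0.789 and 0.783, then 0.523, 0.486 and 0.137. ACSS2-KO-2 lay above NC without passing (log2 fold change 0.92 ± 0.47, edgeR adjusted p = 0.294), and ACSS2-KO-3 gave -0.02 ± 0.54 (edgeR adjusted p = 0.976; 0.41 with offsets, adjusted p = 0.529). The filter on low counts kept SNAI2 through ACSS2-KO-2, where it was highest. TWIST1, a helix-loop-helix factor, had 0 counts in all NC libraries, 10, 12 and 3 for ACSS2-KO-2 and 1, 1 and 2 for ACSS2-KO-3. The mean level in ACSS2-KO-2, 0.514 CPM, was 2.75 times the NC floor of 3 counts per library, 0.187 CPM. ACSS2-KO-2 replicate 3, at 0.181 CPM, and all ACSS2-KO-3 libraries lay under that floor. TWIST1 was left out of the tests by the filter on low counts. Without the filter it passed in ACSS2-KO-2 against NC (edgeR adjusted p = 0.000444) and between the knockouts (0.0169), and did not pass in ACSS2-KO-3 against NC (0.108). TWIST2, its paralog, did not pass in either knockout, at 0.12 in both (0.0013 with offsets in ACSS2-KO-3).

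Of the 4 genes of TGF-beta signalling, TGFB1 rose in both knockouts, while the sign of TGFB2 and TGFBR1 in ACSS2-KO-3 turned with the offsets. TGFB1 (chr19:41301587-41353911, - strand), a ligand, was at 56.4, 55.3 and 62.5 CPM in NC, 66.2, 68.9 and 68.5 for ACSS2-KO-2 and 76.8, 75.98 and 84.3 for ACSS2-KO-3. The groups did not overlap and TGFB1 rose in both, by 0.22 ± 0.06 (edgeR adjusted p = 0.0305) and 0.44 ± 0.06 (edgeR adjusted p = 8.28e-07; 0.20 with offsets) in log2 units. In ACSS2-KO-2 it did not pass without NC replicate 1 (0.20, adjusted p = 0.118), NC replicate 2 (0.19, 0.162), ACSS2-KO-2 replicate 2 (0.22, 0.121) or ACSS2-KO-2 replicate 3 (0.22, 0.1). TGFB1 shares positions with HNRNPUL1 and CCDC97 on the opposite strand, which had 45921 and 4799 counts against 9803.

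TGFB2 (chr1:218346235-218444619, + strand), a second ligand with a transcript GC content of 38.9%, was at 73.6, 71.8 and 76.1 CPM in NC, 63.8, 70.0 and 68.9 for ACSS2-KO-2 and 51.8, 57.7 and 56.0 for ACSS2-KO-3. Its ACSS2-KO-3 libraries were the lowest, at a log2 fold change of -0.42 ± 0.06 (edgeR adjusted p = 1.58e-06), but with offsets the value was 0.33 (adjusted p = 5.8e-06), so that its direction depends on that step. ACSS2-KO-2 gave -0.13 ± 0.06 (edgeR adjusted p = 0.254). TGFBR1, the type I receptor (GC content 39.0%), was named in full after its values were seen because its sign also turned. Its levels were 69.0, 71.1 and 65.8 CPM in NC, 52.7, 61.3 and 65.7 for ACSS2-KO-2 and 58.7, 62.3 and 49.0 for ACSS2-KO-3. In ACSS2-KO-2 its log2 fold change was -0.20 ± 0.08 (edgeR adjusted p = 0.153), and with offsets it was called lower (-0.22, adjusted p = 0.033). Its log2 fold change in ACSS2-KO-3 was -0.27 ± 0.08 (edgeR adjusted p = 0.004), -0.18 without ACSS2-KO-3 replicate 3 (adjusted p = 0.0609) and 0.50 with offsets (adjusted p = 1.12e-07). TGFBR2 (chr3:30606502-30694142, + strand), the type II receptor, was at 108, 109 and 115 CPM in NC, 103, 122 and 122 for ACSS2-KO-2 and 114, 117 and 124 for ACSS2-KO-3. Those groups overlapped and it did not pass, at 0.07 ± 0.06 (edgeR adjusted p = 0.624) and 0.10 ± 0.06 (edgeR adjusted p = 0.188; 0.04 with offsets).

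AXL (chr19:41219203-41261766, + strand), a receptor tyrosine kinase associated with mesenchymal states in carcinoma, was at 326, 340 and 345 CPM in NC, 369, 396 and 397 for ACSS2-KO-2 and 652, 580 and 687 for ACSS2-KO-3. The groups were ordered without overlap. It rose by 0.20 ± 0.06 in log2 units for ACSS2-KO-2 (edgeR adjusted p = 0.0264) and by 0.92 ± 0.06 in ACSS2-KO-3 (edgeR adjusted p = 8.72e-14; 0.78 with offsets). The ACSS2-KO-3 call held under all 18 alternatives. In ACSS2-KO-2 it did not hold without NC replicate 1, 2 or 3 (0.18, 0.21 and 0.22; adjusted p = 0.105, 0.0724 and 0.0507) or without ACSS2-KO-2 replicate 2 or 3 (0.19 and 0.18; adjusted p = 0.127 and 0.117).

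**Figure D4:**
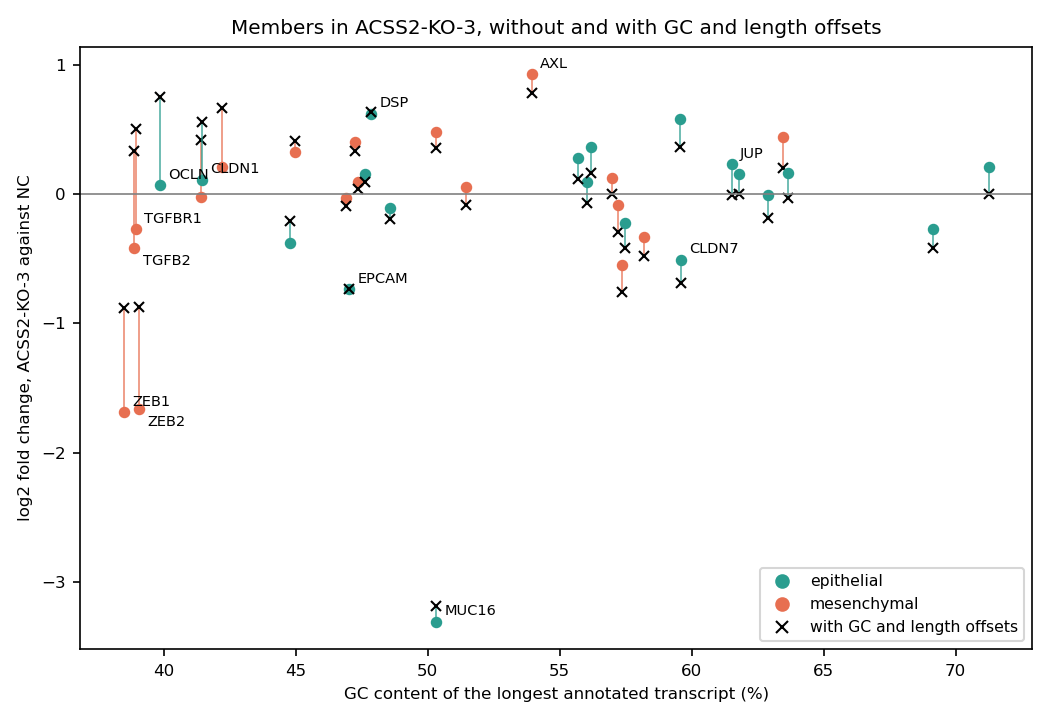
Log2 fold change in ACSS2-KO-3 against NC (y axis) of the 38 tested members against the GC content of their longest annotated transcript (x axis, %), without offsets (coloured points) and with offsets for GC content and length (crosses), joined by a line per gene. The lines are long at the left, where ZEB1 moves from -1.69 to -0.88 and TGFB2 and TGFBR1 cross 0, and short for EPCAM (-0.73 to -0.74) and DSP (0.62 to 0.63).

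Set directly against ACSS2-KO-2, ACSS2-KO-3 had 26 of the 38 tested members called, against 61.7% of all tested genes: 10 epithelial members higher and 5 lower, and 7 mesenchymal members higher and 4 lower, where 31.2% of all tested genes were higher and 30.5% lower. With offsets 20 of 38 passed, 13 higher and 7 lower, against 57.4% of all tested genes, 34.6% higher and 22.8% lower. The libraries of the knockouts were separated upwards for 16 members and downwards for 11, against 65.9% of all tested genes, 33.3% upwards and 32.6% downwards. The AXL, ZEB1, ZEB2, CDH2, CCN1, CCN2, EPCAM and KRT8 differences were among the calls that kept their direction and passed with offsets.

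Further genes of the same programmes were counted from 8 lists, whose median log2 fold changes ran from -0.19 to 0.16 in ACSS2-KO-2 (all tested genes -0.003) and from -0.06 to 0.39 in ACSS2-KO-3 (all tested genes -0.04). The counts below are to be read against the 6.65% of all tested genes called in ACSS2-KO-2 and the 63.3% called in ACSS2-KO-3. Counts and shares include genes that the filter on low counts kept through 1 group alone, which favours 1 direction. With offsets no list count in ACSS2-KO-2 moved by more than 1 in a direction, and those in ACSS2-KO-3 are given in turn, against 60.3% of all tested genes. Of 39 tested junction and polarity genes outside the set, 6 rose and 4 fell in ACSS2-KO-2, and 17 rose and 11 fell in ACSS2-KO-3 (15 and 8 with offsets). PLEC, which encodes the cytoskeletal linker plectin, rose in ACSS2-KO-3 from a mean of 908 to 1847 CPM (log2 fold change 1.03, 0.95 with offsets). DST, a linker of hemidesmosomes, fell there from 434 to 127 CPM (-1.78, -1.12 with offsets) and the desmosomal cadherin gene DSG2 from 86.4 to 37.9 CPM (-1.18, -0.76 with offsets). In ACSS2-KO-2 the desmosomal cadherin gene DSC3 rose from 0.479 to 2.63 CPM (2.45) and the gap junction gene GJB2 fell from 70.5 to 49.7 CPM (-0.51). Of 14 tested keratins, mucins and surface proteases, 2 were called in ACSS2-KO-2, both lower, and 3 rose and 1 fell in ACSS2-KO-3 (2 and 2 with offsets). KRT80, an epithelial keratin, rose there from 454 to 818 CPM (0.85, 0.66 with offsets). Of 15 tested epithelial and ductal transcription factors, 3 rose and 3 fell in ACSS2-KO-2, and 7 rose and 2 fell in ACSS2-KO-3 (6 and 3 with offsets). TFCP2L1, a relative of the grainyhead factors, fell in both (-0.72 and -0.66, the second -0.69 with offsets), and KLF5 rose in ACSS2-KO-2 (1.11). GRHL3, another grainyhead factor, fell in ACSS2-KO-2, where its mean was 43.0 CPM against 54.6 in NC (-0.34, edgeR adjusted p = 0.000688).

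Of 49 tested mesenchymal structural and surface genes, 6 rose and 7 fell in ACSS2-KO-2, and 17 rose and 15 fell in ACSS2-KO-3 (19 and 15 with offsets). FBN1, the microfibril protein fibrillin, rose in ACSS2-KO-2 from 0.515 to 1.95 CPM (1.897), and the proteoglycan gene VCAN had 1 count in the 3 NC libraries together, 44, 31 and 24 in the ACSS2-KO-2 libraries and 5 in all of ACSS2-KO-3. The integrin gene ITGAV fell in ACSS2-KO-3 from 390 to 149 CPM (-1.39, -0.55 with offsets), and the ligand gene WNT5B rose from 50.2 to 94.5 CPM (0.91, 0.71 with offsets). Of 19 mesenchymal transcription factors tested, 6 rose and 1 fell in ACSS2-KO-2, and 10 rose and 4 fell in ACSS2-KO-3 (11 and 1 with offsets). SIX2 had 0 counts in NC, 39, 23 and 32 for ACSS2-KO-2 and 0, 1 and 1 for ACSS2-KO-3. The filter on low counts kept SIX2 and VCAN only through ACSS2-KO-2, where they were high. A call there could hardly be lower, so their rises are a description. TCF4, a helix-loop-helix factor, rose in ACSS2-KO-2 (1.82) and was called lower in ACSS2-KO-3 (-1.94, not past the threshold with offsets at -1.10, adjusted p = 0.138).

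Of 32 tested TGF-beta pathway genes, 1 rose and 3 fell in ACSS2-KO-2 and 10 rose and 9 fell in ACSS2-KO-3 (13 and 9 with offsets). SKIL, a transcriptional repressor of the pathway, fell in ACSS2-KO-3 from 123 to 25.3 CPM (-2.28, -0.99 with offsets), as did ITGB8, an integrin that activates TGF-beta (-2.58, -1.67 with offsets), and the ligand gene INHBB rose (0.83, 0.62 with offsets). Of 26 genes around YAP, TAZ and TEAD, 4 rose and 1 fell in ACSS2-KO-2 and 12 rose and 11 fell in ACSS2-KO-3 (14 and 7 with offsets). WWTR1, which encodes TAZ, was called lower in ACSS2-KO-2 (316 to 275 CPM, -0.20), AMOT rose there (1.17), and AMOTL1 and AJUBA rose in ACSS2-KO-3 (1.27 and 1.03, with offsets 1.24 and 0.89). Of 13 tested SRF and MRTF genes, 3 were called in ACSS2-KO-2, all higher, and 7 rose and 2 fell in ACSS2-KO-3 (7 and 1 with offsets), with SRF itself higher there (71.2 to 118 CPM, 0.73, 0.51 with offsets). CALD1, the actin-binding protein caldesmon, rose in ACSS2-KO-2 (0.69) and fell in ACSS2-KO-3 (-1.25, -0.81 with offsets).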

How the data were processed

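Polyadenylated RNA of 9 PANC-1 libraries was made into paired-end libraries by a dUTP method that keeps the strand, per the labels' protocols. Per the submitters' processing notes, reads on GRCh38 were handled by StringTie 2.1.6, HISAT2 2.2.1, cutadapt 1.9, edgeR and DESeq2, in no stated order; neither the source of the counts nor the strand used in counting is stated. The authors deposited whole-number counts per gene, 1 column a library and not scaled between libraries, with gene positions that match GENCODE release 29. Groups came from the sample titles, since the treatment labels of the knockouts change with the sample number. The members, the other gene lists and the tests were chosen with earlier results of these data known.

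Counts were scaled by TMM and filtered by group with filterByExpr (minimum count 10, minimum total 15) in edgeR 4.0.16 (R 4.3.3), leaving 15811 genes. Quasi-likelihood models with 1 mean per group (6 residual degrees of freedom, common dispersion 0.00291) gave 2-sided p-values, adjusted over all tested genes by Benjamini-Hochberg, with a threshold of 0.05; the standard error was taken from the fold change and its F statistic. Fold changes are on edgeR's log2 scale. The steps were checked on simulated counts. Offsets for GC content and length were splines with 5 degrees of freedom per library, fitted on the longest GENCODE transcript, available for 15804 tested genes. The alternatives were RLE scaling, DESeq2 1.42.0, limma-voom (limma 3.58.1), no low-count filter, a filter of 1 CPM in 3 libraries, only the 2 groups compared, the replicate number as a block, the offsets, both together, and each of the 9 libraries left out, 18 in all. Named genes followed a rule: all members; counts or CPM in each library for 14 defining genes and for the 2 members of each role with the largest change past the threshold and at 1 CPM or more; and, from each other list, up to 2 genes a direction, of which some are given here. A count of 0 in a library allows 3 counts (0.172 to 0.206 CPM); such floors cover counting error only. The replicate numbers showed no pairing (residual correlations -0.041 to 0.056, 0 of 9 over 0.1). Libraries of a group differed by more than sampling noise, so none was merged.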

Additional observations from a re-analysis of the deposited data

Results flagged for a closer look

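The 2 knockouts were set against each other in the same edgeR model, and 26 members differed between ACSS2-KO-3 and ACSS2-KO-2 at an adjusted p of 0.05, where 61.7% of all tested genes did. Each value below is the log2 fold change of ACSS2-KO-3 against ACSS2-KO-2. No explanation was tested.

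Lower in ACSS2-KO-3 among the epithelial members were EPCAM (-0.59), CLDN1 (-0.31), CLDN4 (-0.19), CLDN7 (-0.25) and TJP1 (-0.31). Higher were KRT8 (0.38), KRT18 (0.37), OCLN (0.19), F11R (0.26), DSP (0.24), JUP (0.32), ITGB4 (0.33), MUC1 (0.32), ESRP2 (0.39) and ELF3 (0.20). Of the mesenchymal members, FN1 (-0.90), ZEB1 (-1.77), ZEB2 (-2.17) and TGFB2 (-0.29) were lower, and CDH2 (0.52), VIM (0.16), SPARC (0.37), CCN1 (0.45), CCN2 (0.42), TGFB1 (0.22) and AXL (0.72) higher.

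With offsets for GC content and length the ZEB1 and ZEB2 differences were -0.94 and -1.34, that of CDH2 was 0.62 and that of AXL 0.59. TGFB2 was then called in the opposite direction (0.47, adjusted p = 1.15e-08), and CLDN1 and TGFB1 changed sign without passing (0.12 and -0.033; adjusted p = 0.104 and 0.647). With the same offsets 7 more differences did not pass: TJP1 (-0.11, adjusted p = 0.0988), JUP (0.09, 0.111), MUC1 (0.17, 0.146), ELF3 (0.05, 0.497), VIM (0.07, 0.188), FN1 (-0.40, 0.15) and SPARC (0.29, 0.055). CDH2 is the member called in opposite directions against NC, at -0.20 and 0.32. The OCLN difference did not pass without ACSS2-KO-2 replicate 1 (0.14, adjusted p = 0.105), that of DSP without the same library (0.19, adjusted p = 0.0574), and that of VIM without ACSS2-KO-2 replicate 3 (0.11, adjusted p = 0.112).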

How the results depend on the processing

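Of the member calls, 4 of 11 in ACSS2-KO-2 against NC, 16 of 22 in ACSS2-KO-3 against NC and 14 of 26 between the knockouts passed in the same direction under all 18 alternatives. A further 57 of 952 values that passed in neither setting changed sign.

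With offsets for GC content and length, KRT19, JUP and ITGB4 in ACSS2-KO-3 against NC turned to -0.00066, -0.0046 and -0.030, and TGFB2 and TGFBR1 to 0.33 and 0.50; with the replicate block and the offsets together these were -0.0011, -0.0045, -0.0295, 0.33 and 0.50. Between the knockouts CLDN1, TGFB1, TGFB2 and TGFBR1 turned to 0.12, -0.033, 0.47 and 0.72 with the offsets and to 0.12, -0.0333, 0.47 and 0.71 with both. The mesenchymal members called higher in ACSS2-KO-3 against NC went from 5 to 8 with the offsets and to 8 with both.

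In ACSS2-KO-2 against NC the mesenchymal members called lower were 1 under RLE scaling and 1 in DESeq2, and the epithelial members called lower were 0 in DESeq2. With 1 library left out, epithelial members called lower ran from 0 to 2, mesenchymal members called higher from 1 to 3 and mesenchymal members called lower from 1 to 4. All genes called there ran from 666 to 1295 with 1 library left out and were 1621 with block and offsets, against 1052. The causes were not tested.

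The replicate numbers showed no sign of pairing, and whether libraries were paired is not stated. As a replicate block they gave 1113, 10022 and 9745 called genes against 1052, 10006 and 9756. The block ended 1 member call in ACSS2-KO-2 against NC (KRT19, 0.17, edgeR adjusted p = 0.0529). Depth limits MUC16, FN1, ZEB2, SNAI2 and THY1, with few counts per library, and the 6 members under the filter on low counts.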
